A study of Mus musculus with 12 samples.

Results

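Chromosome 12 was the mouse chromosome with the densest DNase-seq peaks in 9 of 12 libraries of 2 erythroid cell lines, and its peaks are described here. The members are all peaks placed on chromosome 12 of build mm9, 154026 of the 1600000 peaks in 16 deposited lists. The 12 lists of single libraries held 118418 of these among 1200000 peaks, and the 4 lists that the authors made from pooled replicates held the others. Chromosome 11, with 85014 peaks in the 12 lists, and chromosome 13, with 33390, were set beside it. The peaks were chosen by their number, so the density of chromosome 12 against other chromosomes is a description and has no test.

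DNase-seq maps where DNase I cuts chromatin readily, which marks promoters, enhancers and other sites that nucleosomes leave open. In mitosis chromosomes condense, transcription largely stops and many regulatory factors leave the DNA, while a part of the accessible sites stays open and is thought to help genes resume in the daughter cells. Chromosome 12 of the mouse carries, near its distal end, the immunoglobulin heavy chain locus and an imprinted gene cluster with many non-coding RNAs. Its centromere lies at the start of its coordinates.

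There were 4 groups of 3 libraries. Mitotic G1E-ER4 cells received 100 nM estradiol for 22 h and 200 ng/ml nocodazole for 7 h and were sorted for histone H3 phosphorylated at S10. Asynchronous G1E-ER4 cells received the same estradiol and no nocodazole. Mitotic G1E cells received nocodazole at the same dose and time and were sorted in the same way, without estradiol. Asynchronous G1E cells received neither drug. G1E is a line without GATA1, the transcription factor needed for red cell maturation, made by gene targeting in embryonic stem cells of strain 129, and G1E-ER4 is its subline with an inducible GATA1. Each line is 1 cell line, and the subline, the estradiol and the restored GATA1 cannot be told apart. All cells were lightly fixed with formaldehyde. The labels name the surface phenotypes Ter119-CD71- and Ter119-CD71+, and these and other markers could not be looked up among peaks without an mm9 annotation. Whether the replicates were separate cultures is not in the labels, and p-values measure only the spread between these libraries, which may be technical.

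Every list stopped at 100000 peaks, those of highest signal in that library, so a gain on a chromosome comes with a loss elsewhere, and read depth is unknown. In 3 libraries the composition stood apart. Asynchronous G1E-ER4 replicate 1 had the fewest peaks on chromosome 12. Mitotic and asynchronous G1E replicate 1 had many peaks on chromosome 4, with 104 per Mb in the mitotic and 89.4 per Mb in the asynchronous list. Values without these libraries are given where they change a result.

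Chromosome 12 held 9212, 8919 and 9817 peaks in mitotic G1E-ER4 lists, against 5074, 9238 and 9506 in asynchronous G1E-ER4 lists. In G1E it held 10561, 8109 and 9376 peaks in mitotic lists, against 10640, 14475 and 13491 in asynchronous lists. The asynchronous G1E lists were thus the highest, all above every mitotic G1E list, and the stages overlapped in G1E-ER4. As a share of the peaks on the autosomes and X, chromosome 12 took 9.32% ± 0.458 in mitotic and 7.94% ± 2.49 in asynchronous G1E-ER4 lists (SD, n = 3 each). In G1E these shares were 9.35% ± 1.23 in mitotic and 12.9% ± 1.99 in asynchronous lists (SD, n = 3 each). The authors' pooled lists had 9030 peaks on chromosome 12 for mitotic and 6328 for asynchronous G1E-ER4 cells, and 9029 for mitotic and 11221 for asynchronous G1E cells.

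**Figure D1:**
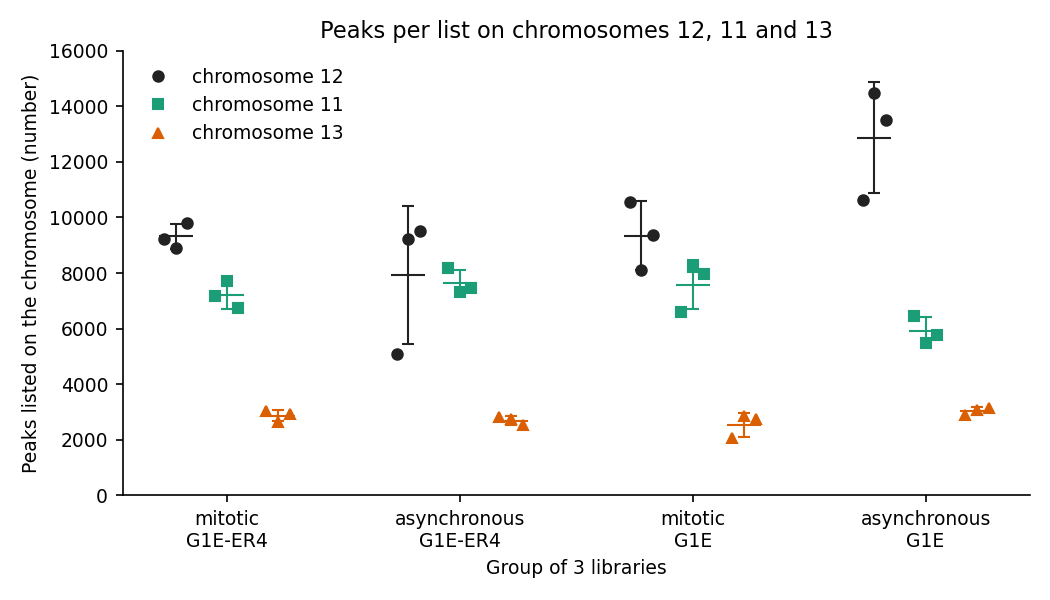
Number of peaks on chromosomes 12, 11 and 13 in each list, by group; each point is 1 library, the horizontal mark is the mean and the bar its SD (n = 3). Chromosome 12 lies above chromosome 11 in 10 of the 12 lists and reaches 14475 peaks in an asynchronous G1E list, while 1 asynchronous G1E-ER4 list falls to 5074.

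Over the occupied bins of 1 Mb, density on chromosome 12 was 82.9 ± 20.2 peaks per Mb, on chromosome 11 59.5 ± 7.57 and on chromosome 13 23.8 ± 2.50 (SD, n = 12 lists each). The ratio of chromosome 12 to chromosome 11 averaged 1.46 ± 0.559 and ranged from 0.619 to 2.65. Its ratio to chromosome 13 averaged 3.51 ± 0.862 and ranged from 1.77 to 5.07. Against the median of the other 19 chromosomes the ratio was 2.34 ± 0.807, lowest at 0.991 in asynchronous G1E-ER4 replicate 1 and highest at 3.98 in asynchronous G1E replicate 2. Chromosome 12 was in the 11th place in asynchronous G1E-ER4 replicate 1. It came 2nd in mitotic G1E replicate 1, behind chromosome 4, and 2nd in mitotic G1E replicate 2, behind chromosome 11. Without asynchronous G1E-ER4 replicate 1 its mean density was 86.6 ± 16.5 peaks per Mb (SD, n = 11).

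The excess depended on the rank limit. Among the 20000 peaks of highest signal in each list the density ratio of chromosome 12 to chromosome 11 was 0.819, below parity, and that to chromosome 13 was 2.29. Peak names carry a running number that rises with position on each chromosome. Its origin is not given in the sources used here, and it is read below as a numbering of peaks made before the lists were limited. On chromosome 12 this number was 27202 to 41955 per list, or 302 ± 37.6 per Mb, against 249 ± 63.3 on chromosome 11 and 143 ± 37.2 on chromosome 13 (SD, n = 12). The listed peaks were 27.3% ± 5.55 of those numbered on chromosome 12, 25.4% ± 6.47 on chromosome 11 and 18.2% ± 6.98 on chromosome 13 (SD, n = 12). In this number too the mean of chromosome 12 was the highest of the 3, by a smaller factor than in the lists.

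The excess was uneven along the chromosome. In a bin of median density chromosome 12 held 37.5 peaks (median over the 12 lists), fewer than the 50 of chromosome 11 and more than the 17.5 of chromosome 13. It had more dense bins, with 37 of 119 bins (31.1%) above 100 peaks, against 25 of 119 (21.0%) on chromosome 11 and 1 of 117 (0.855%) on chromosome 13. It also had sparse ones, with 32 bins (26.9%) under 10 peaks, against 24 (20.2%) on chromosome 11 and 41 (35.0%) on chromosome 13. Its fullest bin held 326.5 peaks, against 225 on chromosome 11 and 125.5 on chromosome 13.

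A step in density, from 1 bin to the next, stood 25 Mb from the start of the coordinates, a place read from these same profiles. The last Mb before it held 0 to 4 peaks and the first Mb beyond it 104 to 201 peaks in every list. The first peak beyond began between positions 25067560 and 25092038 in all 12 lists. Density did not stay at that level. Bins that began at 26000001, 27000001 and 28000001 had medians of 33, 31.5 and 16.5 peaks over the 12 lists. From 35000001 to 52000000 bin medians were 2.5 to 39, within the 0 to 58 of the bins before the step. The step at 25 Mb was not the only sharp rise between neighbouring bins. On chromosome 12 bin medians also rose from 9.5 to 146.5 at 70000001 and from 8.5 to 92.5 at 99000001. On chromosome 11 they rose from 18 to 142 at 94000001. Before the step, from 3000001 to 25000000, density was 17.9 ± 6.22 peaks per Mb, 0.770 ± 0.296 of that of chromosome 13 (SD, n = 12). These 22 bins were 18.5% of the occupied bins and held 4.39% ± 2.13 of the chromosome's peaks (SD, n = 12). Beyond it density was 97.7 ± 25.6 peaks per Mb, 4.13 ± 1.07 times that of chromosome 13 and 1.72 ± 0.693 times that of chromosome 11 (SD, n = 12). The running number, whose origin is unknown, advanced by 111 ± 42.9 per Mb before and 346 ± 47.7 per Mb beyond the step (SD, n = 12). Peak lists give no DNA copy number, which was not tested on either side.

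Beyond the step mean density was higher in each successive stretch, though not from bin to bin. From 25000001 to 58000000 it was 46.8 ± 13.98 peaks per Mb, from 58000001 to 90000000 it was 104 ± 23.6, and from 90000001 to 122000000 it was 144 ± 43.3 (SD, n = 12). These stretches held 15.5%, 33.9% and 46.1% of the chromosome's peaks. Relative to the median density of the other 19 chromosomes the excess was 10.2 ± 17.0, 67.5 ± 26.8 and 107 ± 47.0 peaks per Mb, and before the step there was a deficit of -18.7 ± 5.66 (SD, n = 12). By these stretches the excess of chromosome 12 lay mainly between 58 and 122 Mb, but not throughout that span. Medians over the 12 lists were 1 to 46 peaks in bins from 58000001 to 70000000 and 4.5 to 11 from 94000001 to 99000000. They were 26 to 272.5 from 70000001 to 89000000 and 92.5 to 326.5 from 99000001 to 115000000. The last bin, from 121000001, had 1.5. The stretch from 25 to 58 Mb ranged from -23.1 to 42.7 peaks per Mb around the median of the other 19 chromosomes, so its sign differed between lists.

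**Figure D2:**
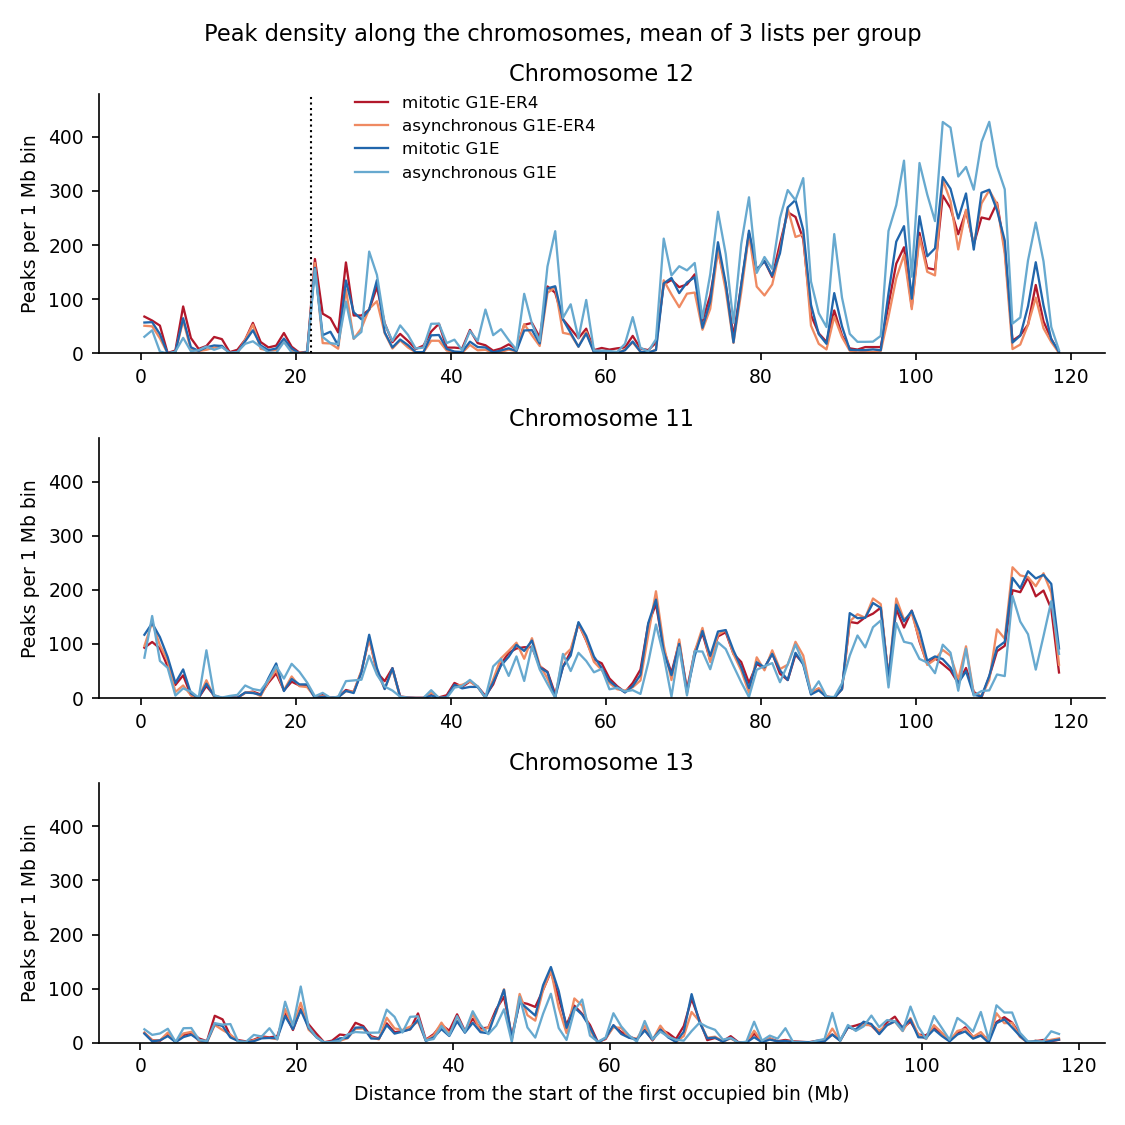
Peaks per bin of 1 Mb (mean of the 3 lists of a group) against the distance in Mb from the start of the first occupied bin, for chromosomes 12, 11 and 13. The dotted line on chromosome 12 marks the step, beyond which the first Mb holds 104 to 201 peaks, and asynchronous G1E (light blue) is the highest line over most of the distal part of that chromosome.

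The 5 fullest bins all lay in the distal stretch. The bin from 106000001 to 107000000 had a median of 326.5 peaks, with 278, 302 and 295 in mitotic G1E-ER4 and 234, 345 and 382 in asynchronous G1E-ER4 lists. In G1E it had 319, 313 and 345 peaks in mitotic and 334, 451 and 497 in asynchronous lists. The stages overlapped in both lines. The others began at 107000001, 112000001, 113000001 and 111000001, with medians of 316.5, 310.5, 303.5 and 290 peaks. The 5 emptiest bins began at 6000001, 14000001, 23000001, 64000001 and 121000001, with medians of 0 to 1.5 peaks, so nearly empty bins occurred on both sides of the step.

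In G1E the stages differed in opposite ways before the step and in the distal stretch. Of these 2 places, the stages of G1E-ER4 were apart only before the step. Before the step, mitotic G1E-ER4 lists had 21.3, 28.4 and 28.2 peaks per Mb, against 19.5, 16.4 and 13.6 in asynchronous G1E-ER4 lists. Mitotic G1E lists had 20.6, 18.5 and 16.8 peaks per Mb there, against 11.8, 9.73 and 10.1 in asynchronous G1E lists. In each line all mitotic lists lay above all asynchronous ones. In the distal stretch mitotic G1E-ER4 lists had 115, 118 and 127 peaks per Mb, against 68.7, 132 and 143 in asynchronous lists. In G1E this stretch had 167, 112 and 133 peaks per Mb in mitotic and 182, 215 and 213 in asynchronous lists. There all asynchronous G1E lists lay above all mitotic ones, and the stages of G1E-ER4 overlapped. These stretches were drawn after the profiles were seen, so no test is given.

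Bin by bin, 5 of the 119 bins of chromosome 12 (4.20%) had all 6 mitotic lists above all 6 asynchronous lists. Over all chromosomes 1.26% of 2541 bins did. On chromosome 11 there were 2 of 119 such bins and on chromosome 13 2 of 117. Of the 5 bins, 3 were among the 22 before the step and 2 in the 33 next to it. The widest difference was in the bin from 30000001 to 31000000, with 49 to 111 peaks (median 72) in mitotic and 11 to 36 (median 32.5) in asynchronous lists. It was followed by the bin from 27000001 to 28000000, with 35 to 85 peaks (median 48.5) in mitotic and 8 to 28 (median 19.5) in asynchronous lists. The bin from 12000001 to 13000000 had 14 to 33 peaks (median 22) in mitotic and 2 to 12 (median 10) in asynchronous lists. No bin of chromosome 12 had all mitotic lists below all asynchronous ones, against 3.97% of bins over all chromosomes. This rested in part on asynchronous G1E-ER4 replicate 1, the list with the fewest peaks on the chromosome. In bins from 32000001, 56000001 and 70000001 mitotic lists reached at most 95, 133 and 147 peaks. Asynchronous lists other than that one had at least 98, 141 and 161 there, and that one 51, 81 and 82. Such bins were not counted without that list. No bin of chromosome 12 separated the lines in either direction, where 0.984% of all bins were higher and 0.0787% lower in every G1E-ER4 list.

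The share of peaks on chromosome 12 was tested between stages and lines with exact permutation tests, two-sided, adjusted over the 60 comparisons of 20 chromosomes and 3 contrasts. The share was 9.33% ± 0.828 in mitotic and 10.4% ± 3.37 in asynchronous lists (SD, n = 6 each), a difference of -1.07 points (exact permutation p = 0.375, adjusted p = 0.549). G1E-ER4 lists had a share of 8.63% ± 1.77 and G1E lists one of 11.1% ± 2.43 (SD, n = 6 each), a difference of -2.48 points (exact permutation p = 0.075, adjusted p = 0.25). The stage difference in G1E-ER4 exceeded that in G1E by 4.90 points (exact permutation p = 0.085, adjusted p = 0.255). In each contrast 0% of the 20 chromosomes passed, and the smallest adjusted p of any chromosome was 0.1. An unadjusted exact permutation p under 0.05 was reached by 3 chromosomes between stages, by 2 between lines and by 4 in the difference between the lines, and chromosome 12 was not among them. Within G1E-ER4 the stages differed by 1.38 points (exact permutation p = 0.7), and within G1E by -3.52 points (exact permutation p = 0.1, the smallest that 3 lists against 3 allow). The difference in G1E-ER4 rested on asynchronous replicate 1, with a share of 5.07%. Asynchronous G1E-ER4 replicates 2 and 3 had 9.24% and 9.51%, within the 8.92% to 9.82% of mitotic G1E-ER4 lists. Between the lines the difference was -0.0326 points in mitotic cells (exact permutation p = 1) and -4.93 points in asynchronous cells (exact permutation p = 0.1).

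Where the chromosome 12 peaks stood in the rank order differed between stages. Rank 1 is the highest signal of a list, and the signal is a value of the authors' peak caller. The median rank of chromosome 12 peaks was 50366 ± 248 in mitotic and 53885 ± 617 in asynchronous G1E-ER4 lists, and 46349 ± 4883 in mitotic and 59919 ± 481 in asynchronous G1E lists (SD, n = 3 each). In mitotic G1E replicate 1 it was 40728, the strongest placement of all. Over the 12 lists it was 52630 ± 5615 on chromosome 12, 45391 ± 4999 on chromosome 11 and 49443 ± 5779 on chromosome 13 (SD, n = 12). In G1E the stages differed the opposite way on chromosomes 11 and 13. Chromosome 11 had 48866 ± 2157 in mitotic and 37530 ± 2472 in asynchronous G1E lists (SD, n = 3 each). Chromosome 13 had 53680.5 ± 2470 and 40723.5 ± 1378 (SD, n = 3 each). In G1E-ER4 chromosome 13 had 53883 ± 564 in mitotic and 49485 ± 2198 in asynchronous lists (SD, n = 3 each). By these means chromosome 12 was placed above chromosome 13 in mitotic and below it in asynchronous lists of both lines. The 10000 highest peaks of a list included 564 ± 176 on chromosome 12, against 890 ± 65.6 on chromosome 11 and 306 ± 23.05 on chromosome 13 (SD, n = 12). On average the peaks of chromosome 12 were thus placed below those of chromosome 11. In mitotic G1E replicate 1 the order was the opposite, with a median rank of 40728 on chromosome 12 and 51325 on chromosome 11, and 1063 against 788 of the top 10000 peaks. Through that library the mean over mitotic G1E lists was also the opposite, at 46349 on chromosome 12 and 48866 on chromosome 11.

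By rank, chromosome 12 took 5.67% ± 0.219 of the top 10000 peaks in mitotic and 4.31% ± 0.568 in asynchronous G1E-ER4 lists, and 6.86% ± 3.28 in mitotic and 5.72% ± 1.01 in asynchronous G1E lists (SD, n = 3 each). The order in G1E rested on mitotic G1E replicate 1, since chromosome 12 had 1063, 478 and 515 of the top 10000 peaks in mitotic and 484, 682 and 550 in asynchronous G1E lists. In ranks 10001 to 20000 it took 9.40% ± 0.246 in mitotic and 4.69% ± 0.609 in asynchronous G1E-ER4 lists (SD, n = 3 each). In that class it took 11.7% ± 4.59 in mitotic and 4.54% ± 0.105 in asynchronous G1E lists (SD, n = 3 each), with 8.70% to 17.0% in the mitotic ones. Lower down the order of the stages turned in G1E. In ranks 40001 to 50000 the share was 9.90% ± 0.458 in mitotic and 18.004% ± 2.50 in asynchronous G1E lists, and 10.4% ± 0.968 in mitotic and 9.44% ± 3.08 in asynchronous G1E-ER4 lists (SD, n = 3 each). The stages of G1E-ER4 overlapped in ranks 40001 to 50000, with 9.33% to 11.25% in mitotic and 5.93% to 11.73% in asynchronous lists. In ranks 90001 to 100000 the share was still 7.96% ± 0.635 in mitotic and 14.6% ± 2.32 in asynchronous G1E lists (SD, n = 3 each).

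**Figure D3:**
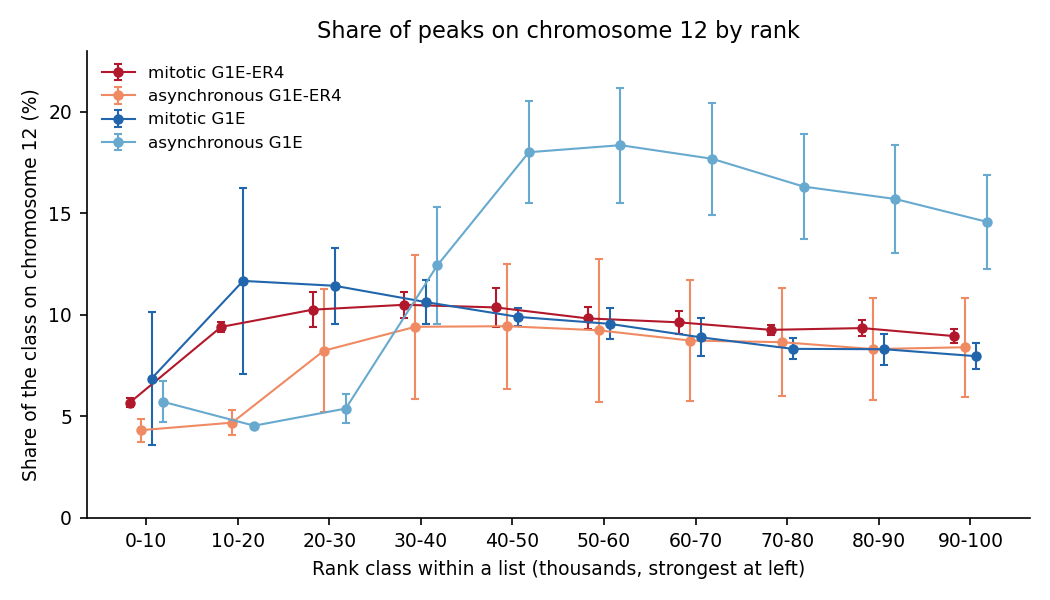
Share (%) of the peaks of each class of 10000 ranks that lie on chromosome 12, by group (mean ± SD, n = 3 lists). Both mitotic groups rise above the asynchronous ones in ranks 10001 to 20000, at 9.40% and 11.7% against 4.69% and 4.54%, and asynchronous G1E has the highest mean from the 30001 to 40000 class downwards.

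The direction of the stage difference thus depended on how many peaks were used. With the 50000 highest peaks of each list the share was 1.45 points higher in mitotic lists (exact permutation p = 0.165, adjusted p = 0.392). With the 20000 highest it was 7.55%, 7.38% and 7.67% in mitotic G1E-ER4 lists, against 3.83%, 4.88% and 4.80% in asynchronous ones. In G1E it was 13.8%, 6.74% and 7.25% in mitotic lists, against 4.64%, 5.68% and 5.07% in asynchronous ones. The 6 mitotic lists, at 8.40% ± 2.66, did not overlap with the 6 asynchronous lists, at 4.82% ± 0.604 (SD, n = 6 each). Chromosome 12 was 3.58 points higher in mitotic cells (exact permutation p = 0.005, adjusted p = 0.0333). In this setting 8 of 20 chromosomes (40%) passed, of which chromosomes 12 and 1 were higher in mitotic lists. The call ended without asynchronous G1E replicate 1, 2 or 3, at 3.46, 3.72 and 3.57 points and adjusted p = 0.1, 0.1 and 0.1125 in the exact permutation test. Without mitotic G1E replicate 1, the highest list, the difference was 2.45 points with an adjusted p of 0.0375 in the exact permutation test. Leaving out single libraries at this limit was chosen after the data were seen.

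Chromosome 12 peaks were wide for their rank. Their median width was 955, 677 and 504 bp in mitotic and 1184, 681 and 676 bp in asynchronous G1E-ER4 lists. In G1E it was 1037, 843 and 669 bp in mitotic and 972.5, 362 and 443 bp in asynchronous lists. Replicates of 1 group differed widely, with 362 and 972.5 bp both in asynchronous G1E, and the groups overlapped. Over the 12 lists the median width was 750 ± 252 bp, against 724 ± 258 bp on chromosome 11 and 589 ± 183 bp on chromosome 13 (SD, n = 12).

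At matched rank the difference between chromosomes was larger for the strong peaks. In the top 10000 the median width was 2267 ± 948 bp on chromosome 12, 1599 ± 514 bp on chromosome 11 and 1270 ± 335 bp on chromosome 13 (SD, n = 12). Chromosome 12 was wider than chromosome 11 in 11 of 12 lists and wider than chromosome 13 in 12 of 12. In ranks 10001 to 20000 it had 1474 ± 542 bp, against 1095 ± 461 bp on chromosome 11 and 866 ± 322 bp on chromosome 13 (SD, n = 12). In ranks 50001 to 100000 it had 564 ± 178 bp, against 532 ± 194 bp and 471 ± 165 bp (SD, n = 12), wider than chromosome 11 in 8 of 12 lists and than chromosome 13 in 12 of 12.

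Peaks on chromosome 12 also lay close together. The median distance between neighbouring summits was 2904 ± 562 bp, against 4314 ± 833 bp on chromosome 11 and 9151 ± 2315 bp on chromosome 13 (SD, n = 12). The share of distances under 5000 bp was 67.3% ± 5.49, against 54.7% ± 5.15 and 38.6% ± 4.16 (SD, n = 12). Peaks covered 8.85% ± 2.98 of the occupied bins of chromosome 12, 6.31% ± 3.01 of those of chromosome 11 and 1.94% ± 0.715 of those of chromosome 13 (SD, n = 12). In the stretch from 90000001 to 122000000 the coverage was 17.9% ± 7.87, with 33.9% in mitotic G1E replicate 1 and 33.5% in asynchronous G1E replicate 1 as the highest (SD, n = 12).

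Merging the 12 lists gave 21791 regions on chromosome 12, 8.21% of 265371. All 12 lists held 1581 of them (7.26%), and 1 list alone held 9428 (43.3%). On chromosome 11 all lists held 8.07% of the regions, on chromosome 13 4.60%, and on all chromosomes but chromosome 12 6.05%. Before the step 40 regions (2.83%) were in all 12 lists, and in the 3 stretches beyond it 166 (2.87%), 557 (7.52%) and 818 (11.4%). The stretch with the most peaks was thus also the one whose regions recurred most often. Peaks covered 17.9% of that stretch and 1.48% of the bins before the step (means of 12 lists). Regions merge at 1 bp of overlap, and the part of this coverage in the recurrence was not tested.

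The strongest shared region spanned chromosome 12 from 37542497 to 37543550, and its rank averaged 31.4 ± 21.1 (SD, n = 12). Its ranks were 29, 26 and 34 in mitotic and 17, 26 and 21 in asynchronous G1E-ER4 lists, and 11, 13 and 17 in mitotic and 78, 68 and 37 in asynchronous G1E lists. It was placed lower in every asynchronous G1E list than in any other. The next spanned 86111119 to 86115961, at 85.2 ± 98.0 on average, and 114363686 to 114396679, a merged region of 32994 bp at 100.1 ± 124 (SD, n = 12). Others spanned 113881305 to 113889641 and 111974148 to 111979710, with mean ranks of 106 ± 184 and 130.2 ± 142 (SD, n = 12). Of these 5, 3 lay in the distal stretch.

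The widest regions shared by all lists were distal too. One ran from 113377309 to 113430397 and, at 53089 bp, was the widest merged region of any chromosome. Its best peaks ranked 5270, 6220 and 5105 in mitotic and 11193, 12094 and 14308 in asynchronous G1E-ER4 lists. In G1E they ranked 5073, 7386 and 6769 in mitotic and 28051, 20535 and 18679 in asynchronous lists. All mitotic lists placed it higher than all asynchronous ones. The region from 110252483 to 110300716, of 48234 bp, also ranked higher in all mitotic lists, at 4164 to 8610 over both lines, than in all asynchronous ones, at 10591 to 30676. The third, from 113336778 to 113375422, of 38645 bp, ranked at 1428 to 5112 in mitotic and 1480 to 7082 in asynchronous lists, which overlapped. How many of the 1581 shared regions of chromosome 12 separated the stages by rank was not counted. Chromosome 12 as a whole had 8.40% of the 20000 highest peaks in mitotic and 4.82% in asynchronous lists. Whether the separation was particular to these wide regions was therefore not tested. A merged region takes in neighbouring peaks of different lists. Of the single peaks on chromosome 12, the widest had 52198 bp among the 12 lists, in mitotic G1E replicate 1, and 53094 bp among the pooled lists, for asynchronous G1E-ER4 cells.

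Regions present in every list of a stage and in none of the other were few. On chromosome 12 there were 8 in all 6 mitotic and no asynchronous list (0.0367% of its regions), against 0.0271% of all regions. There were 23 in all 6 asynchronous and no mitotic list (0.106%), against 0.34% of all regions, 58 regions (0.356%) on chromosome 11 and 48 (0.497%) on chromosome 13. None of either set lay in the distal stretch. The best placed of the asynchronous-only regions spanned 77441241 to 77442689, ranking 53763, 19296 and 17210 in G1E-ER4 and 15505, 4432 and 17032 in G1E lists, and had no peak in either pooled mitotic list. The regions 52958527 to 52960270 and 71062835 to 71064579 followed, with ranks averaging 22681 ± 6702 and 22828 ± 10580 (SD, n = 6 each). The last of these was nevertheless listed for pooled mitotic G1E cells.

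Among the mitotic-only regions, 3 lay before the step. One of them spanned 22119445 to 22119934, ranking 64485, 37770 and 49087 in G1E-ER4 and 49627, 76418 and 84093 in G1E lists, and had a peak in both pooled mitotic and neither pooled asynchronous list. Another, from 3914555 to 3916288, whose rank averaged 58579 ± 24941 (SD, n = 6), also had a peak in the pooled asynchronous G1E-ER4 list. Just beyond the step, 25375591 to 25376451 had a mean rank of 45991 ± 24080 (SD, n = 6), with a peak in the same pooled list. Without asynchronous G1E-ER4 replicate 1 there were 59 asynchronous-only and 15 mitotic-only regions. The mitotic-only count was also over 1.5 times higher without asynchronous G1E-ER4 replicate 2, at 14, mitotic G1E-ER4 replicate 3, at 13, and mitotic G1E replicates 2 and 3, at 16 and 13.

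Within a line the counts were larger. In G1E-ER4, 179 regions of chromosome 12 (0.821%) were in all 3 mitotic and no asynchronous list, against 0.423% of all regions and 45 regions (0.276%) on chromosome 11. In the opposite direction there were 116 (0.532%), against 1.89% of all regions and 423 (2.60%) on chromosome 11. In G1E, 192 regions of chromosome 12 (0.881%) were mitotic-only, against 2.19% of all regions, and 520 (2.39%) were asynchronous-only, against 2.97%. In G1E-ER4 the median width on chromosome 12 was 1294 bp for mitotic-only and 1034.5 bp for asynchronous-only regions. In G1E it was 1707.5 bp and 912.5 bp. On chromosome 11 the widths were 1030 bp and 896 bp in G1E-ER4, and 3032 bp and 646.5 bp in G1E.

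Between the lines, 1 region of chromosome 12 was in every G1E-ER4 and no G1E list, against 0.0848% of all regions. The opposite held for 10 regions (0.0459%), against 0.0358% of all regions. The best placed of these spanned 4082209 to 4083391, before the step, with ranks of 12457, 7550 and 6653 in mitotic and 13663, 4865 and 8752 in asynchronous G1E lists. Of the pooled lists, both of G1E held it and neither of G1E-ER4 did. The stages overlapped in those ranks. The next, 85470661 to 85471507 and 87361037 to 87365116, had mean ranks of 33606 ± 16926 and 36046 ± 19804 (SD, n = 6 each). In asynchronous cells alone, 80 regions (0.367%) were in all G1E-ER4 and no G1E lists, against 1.96% of all regions, and 676 (3.10%) in all G1E and no G1E-ER4 lists, against 2.15%. Of the 676, 343 lay in the distal stretch, as did 4 of the 80. In mitotic cells the counts were 86 (0.395%), against 0.536% of all regions, and 110 (0.505%), against 0.581%. The count of 10 was 24, 28 and 24 without mitotic G1E replicate 1, 2 and 3, and 17 without asynchronous G1E-ER4 replicate 2. The single G1E-ER4 region became 6 without asynchronous G1E-ER4 replicate 1, 3 without mitotic G1E replicate 2, and 2 without mitotic G1E-ER4 replicate 1, asynchronous G1E-ER4 replicate 3, or mitotic G1E replicate 1 or 3.

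Recovery was measured on regions that 2 asynchronous lists of a line shared, as the percentage found in a mitotic list and in the left-out asynchronous list of the same line. Where an asynchronous library is dropped from the set below, regions of 1 asynchronous list serve in that line, so the measure differs too. In G1E-ER4, 2856 to 3787 regions of chromosome 12 entered, and mitotic lists recovered 85.0%, 83.0% and 77.5% of them, against 69.0%, 88.6% and 91.5% in asynchronous lists. The stages overlapped, since asynchronous replicate 1 lay below every mitotic list. In G1E, 4943 to 5177 regions entered, and mitotic lists recovered 71.9%, 59.9% and 62.9%, against 82.6%, 78.9% and 79.6% in asynchronous lists. All mitotic G1E lists lay below all asynchronous ones.

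Mitotic recovery of chromosome 12 in G1E-ER4 was 81.8% ± 3.87, against 83.1% ± 12.2 in asynchronous lists (SD, n = 3 each), a difference of -1.24 points (exact permutation p = 0.9). In G1E it was 64.9% ± 6.28, against 80.4% ± 1.97 (SD, n = 3 each), a difference of -15.5 points (exact permutation p = 0.05, the smallest that this test allows). Over both lines mitotic recovery fell by 8.35 points (exact permutation p = 0.0275, adjusted p = 0.0289 over 20 chromosomes). All 20 chromosomes (100%) passed, so passing was not particular to chromosome 12. Its difference was the smallest of the 20, which extended to -34.9 points on X. The lines did not differ beyond their spread, with 14.2 points between their stage differences (exact permutation p = 0.175). The sign in G1E-ER4 turned without mitotic replicate 3, at 0.925 points. It also turned without asynchronous replicate 2 or 3, at 2.59 and 4.74 points, there on regions of 1 list. The G1E-ER4 difference was -8.43 points with the 20000 highest peaks (exact permutation p = 0.1) and -5.16 points with the 50000 highest (exact permutation p = 0.3). With peaks cut to 300 bp at the summit it was -4.61 points (exact permutation p = 0.65). Where 0.5 of the shorter interval had to overlap, the combined difference was -4.78 points (exact permutation p = 0.3825), that in G1E -6.59 points (exact permutation p = 0.55) and the difference between the lines 3.62 points (exact permutation p = 0.77).

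The combined call also ended in the exact permutation test without each of 8 single libraries. It was -7.26 points without mitotic G1E-ER4 replicate 3 (exact permutation test, adjusted p = 0.0579), and -6.43 and -5.36 points without asynchronous G1E-ER4 replicates 2 and 3 (adjusted p = 0.14 and 0.195). It was -7.08 and -7.85 points without mitotic G1E replicates 2 and 3 (exact permutation test, adjusted p = 0.0684 and 0.0632). It was -6.64, -7.09 and -6.67 points without asynchronous G1E replicates 1, 2 and 3 (exact permutation test, adjusted p = 0.0947, 0.121 and 0.137). Without asynchronous G1E-ER4 replicate 1, the list that stood apart, it was -9.83 points (adjusted p = 0.0158, exact permutation test). All values without an asynchronous library use regions of 1 list in that line, so the measure changed along with the library.

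**Figure D4:**
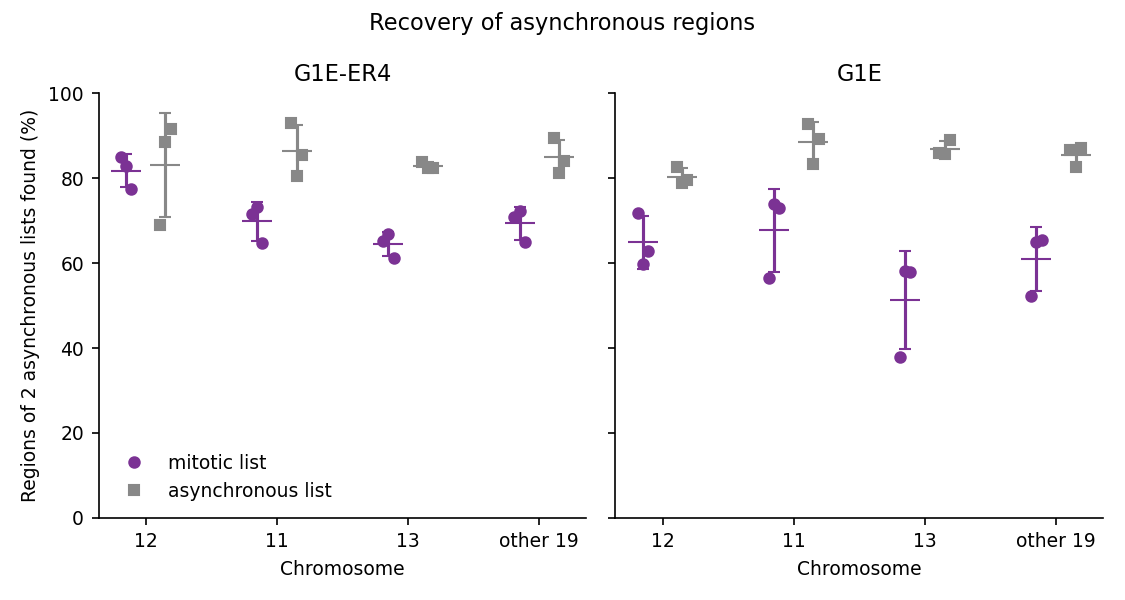
Percentage of regions of 2 asynchronous lists found in each mitotic list (circles) and in the left-out asynchronous list (squares), for chromosomes 12, 11, 13 and the other 19 together, in G1E-ER4 (left) and G1E (right); marks and bars are mean and SD (n = 3). On chromosome 12 the stages overlap in G1E-ER4, at 81.8% and 83.1%, and are separate in G1E, at 64.9% and 80.4%.

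The stages differed more on the other chromosomes. In G1E-ER4 mitotic recovery was 69.9% ± 4.60 on chromosome 11, against 86.4% ± 6.29 in asynchronous lists, and on chromosome 13 it was 64.5% ± 2.88, against 82.9% ± 0.820 (SD, n = 3 each). In G1E it was 67.8% ± 9.78 on chromosome 11, against 88.5% ± 4.78 in asynchronous lists, and on chromosome 13 it was 51.3% ± 11.6, against 86.9% ± 1.79 (SD, n = 3 each). Over all chromosomes but chromosome 12 mitotic recovery differed from asynchronous by -20.05 points (exact permutation p = 0.0025, the smallest this test allows). In G1E-ER4 these together had 69.4% ± 3.91 in mitotic and 84.9% ± 4.10 in asynchronous lists (SD, n = 3 each). In G1E they had 61.0% ± 7.46 and 85.5% ± 2.40 (SD, n = 3 each). In both lines the asynchronous mean of chromosome 12, at 83.1% and 80.4%, was lower. In G1E its mitotic mean of 64.9% was within the spread of the others and below that of chromosome 11. Its smaller stage difference in G1E thus rested on the asynchronous lists as well. The stage difference on chromosome 12 was 11.7 points less negative than on the others together (exact permutation p = 0.0325). It was so by 14.3 points in G1E-ER4 (exact permutation p = 0.05) and by 9.10 points in G1E (exact permutation p = 0.25).

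The call on that contrast between chromosomes depended on single libraries and on the rank limit. A test without 1 library has fewer than 400 arrangements, and without an asynchronous one recovery is of regions of 1 list in that line. The contrast was 8.28 points without asynchronous G1E-ER4 replicate 1 (exact permutation p = 0.055). Without any other G1E-ER4 library it was 11.3 to 12.1 points, near the 11.7 of all libraries (exact permutation p = 0.055 to 0.065). Without asynchronous G1E replicate 1, 2 or 3 it was 9.95, 8.60 and 8.31 points (exact permutation p = 0.14, 0.165 and 0.175). It held without mitotic G1E replicate 1, at 7.79 points (exact permutation p = 0.015), a value over 1.5 times smaller. It also held without mitotic G1E replicates 2 and 3, at 13.97 and 13.3 points (exact permutation p = 0.005 and 0.01). With the 20000 highest peaks it was 5.57 points (exact permutation p = 0.1325), and with the 50000 highest 14.9 points (exact permutation p = 0.0025). Where 0.5 of the shorter interval had to overlap, it was 13.9 points (exact permutation p = 0.025). The peaks of chromosome 12 covered 8.85% of its bins, more than on chromosomes 11 and 13, and were wider at matched rank, and the part of density and width in the recovery was not tested. When peaks were cut to 300 bp at the summit it was 12.8 points (exact permutation p = 0.0025).

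Recovery was also read at matched rank, for single peaks of an asynchronous list by their place in it, as a description. Of the top 10000, mitotic lists recovered 99.5% ± 0.0566 on chromosome 12 in G1E-ER4, against 99.9% ± 0.158 in asynchronous lists (SD, n = 3 each). In G1E these were 95.9% ± 2.79 in mitotic and 99.7% ± 0.218 in asynchronous lists (SD, n = 3 each). In ranks 10001 to 20000 of chromosome 12, mitotic G1E-ER4 lists recovered 86.1% ± 7.02, against 98.5% ± 0.309 in asynchronous ones (SD, n = 3 each). Mitotic G1E lists recovered 78.9% ± 3.87 there, against 97.8% ± 0.498 in asynchronous ones (SD, n = 3 each). In both lines the mitotic mean of this class lay below the asynchronous one by more than its SD. In the same ranks mitotic G1E-ER4 lists recovered 78.7% ± 3.60 on chromosome 11 and 76.2% ± 5.43 on chromosome 13, and mitotic G1E lists 82.4% ± 2.57 on chromosome 11 and 68.5% ± 2.51 on chromosome 13 (SD, n = 3 each). Chromosome 12 was thus below chromosome 11 in G1E in that class.

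In ranks 20001 to 50000 chromosome 12 had the highest mitotic mean of the 3 in both lines. In G1E-ER4 mitotic lists recovered 74.9% ± 6.06 there on chromosome 12, 56.2% ± 2.90 on chromosome 11 and 45.2% ± 7.61 on chromosome 13 (SD, n = 3 each). Asynchronous lists recovered 78.6% ± 8.32, 77.9% ± 9.30 and 70.7% ± 4.37 (SD, n = 3 each), so chromosome 12 was not apart from chromosome 11 in them. In G1E mitotic lists recovered 62.7% ± 6.78 on chromosome 12, 49.3% ± 7.34 on chromosome 11 and 32.4% ± 4.24 on chromosome 13, and asynchronous lists 75.3% ± 4.05, 77.8% ± 12.97 and 77.1% ± 6.53 (SD, n = 3 each). In ranks 50001 to 100000 of G1E-ER4, chromosome 12 had 51.4% ± 7.25 in mitotic and 48.1% ± 11.8 in asynchronous lists (SD, n = 3 each), within their spread.

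**Figure D5:**
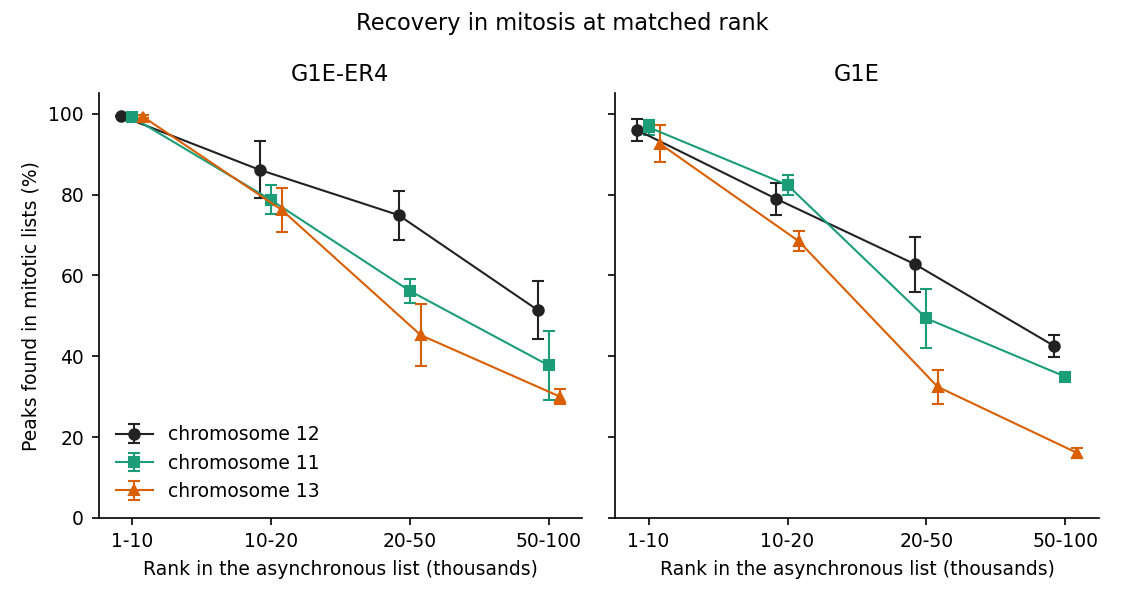
Percentage of peaks of an asynchronous list found in mitotic lists of the same line, by the rank class of the peak, on chromosomes 12, 11 and 13 (mean ± SD, n = 3), in G1E-ER4 (left) and G1E (right). All start above 92% in the top 10000, and in ranks 20001 to 50000 chromosome 12 is the highest in both lines, at 74.9% and 62.7%.

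Along chromosome 12 mitotic recovery in G1E-ER4 was 74.7% ± 5.34 before the step, against 76.6% ± 9.39 in asynchronous lists (SD, n = 3 each). In the distal stretch it was 85.0% ± 4.55, against 85.5% ± 12.9 (SD, n = 3 each). The stages overlapped in both places. In G1E it was 52.5%, 62.3% and 64.2% before the step in mitotic lists, against 90.2%, 84.7% and 90.2% in asynchronous ones. From 25000001 to 58000000 it was 47.3%, 52.3% and 56.5% in mitotic G1E lists, against 68.5%, 76.0% and 79.2% in asynchronous ones. In both of these stretches all mitotic G1E lists lay below all asynchronous ones. In the distal stretch mitotic G1E lists recovered 85.6%, 59.5% and 62.5%, against 91.6%, 77.9% and 78.3% in asynchronous ones. There the stages overlapped through mitotic G1E replicate 1, the list that covered 33.9% of that stretch.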

How the data were processed

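DNase-seq peaks were analysed for 12 libraries of 4 groups, with groups taken from the labels. Bowtie and build mm9 of the mouse genome are named in the submitters' processing notes. Neither the peak caller nor a filter is given in the sources used here. All 16 deposited lists have no header. Each holds 100000 peaks in descending order of the signal that the authors' peak caller gave each peak, whose normalization is not stated, so signal served only for ranks within 1 list. The authors' limit by rank sets the number of peaks, and read depth and counting intervals cannot be given. The 4 pooled lists served as an alternative and to look up regions.

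Positions are counted from 1. Peaks were counted in 1 Mb bins by their summit, and densities are per occupied bin. Shares are of the peaks on 19 autosomes and X, leaving out 4 to 8 peaks per list on Y and the mitochondrial genome. Regions are the union of the 12 lists, merged at an overlap of 1 bp. All tests were two-sided exact permutation tests with labels exchanged within line or stage (20 arrangements, or 400 over both), Benjamini-Hochberg adjustment and a threshold of 0.05. Within a line the smallest exact permutation p is 0.1 for shares and 0.05 for recovery. No 2 files were identical. Named bins and regions are those of best rank, greatest width, highest or lowest count and largest non-overlapping difference. The members, lists and tests were chosen with earlier results of these data known. Alternatives were the 50000 or 20000 highest peaks, other overlaps and intervals, other denominators, the pooled lists, each library left out and a replicate block. The procedure was tested on simulated data. No genome or annotation of mm9 was used, so no genes and no sequences are given. Python 3.11.15 was used with numpy 2.4.6, pandas 2.3.3, scipy 1.17.1 and matplotlib 3.10.9.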

Additional observations from a re-analysis of the deposited data

How the results depend on the processing

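With the 50000 and the 20000 highest peaks the stage difference in the share of peaks turned to 1.45 and 3.58 points, and with the 20000 highest the difference between lines in it turned to -1.10. With the 20000 highest peaks the density ratios were 0.819 to chromosome 11 and 2.29 to chromosome 13, and the recovery contrast with the other chromosomes was 5.57 points. With the 50000 highest peaks there were 14 asynchronous-only and 2 G1E-ER4-only regions, and with 300 bp around summits 3 G1E-ER4-only ones. Requiring 0.5 of the shorter interval to overlap gave a combined recovery difference of -4.78 points. Without both first G1E libraries, chosen after seeing the data, it was -8.30 points (adjusted p = 0.0789, exact permutation test), the contrast with other chromosomes was 7.02 points, and there were 16 mitotic-only, 3 G1E-ER4-only and 26 G1E-only regions. The causes were not tested.

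Leaving out 1 library gave combined recovery differences of -10.1 to -5.36 points, -4.20 to 4.74 in G1E-ER4, and 7.79 to 13.97 for the contrast with the other chromosomes. Without an asynchronous library these rest on regions of 1 list in that line, a different measure. Region counts were 23 to 59 asynchronous-only, 10 to 16 mitotic-only, 1 to 6 G1E-ER4-only and 11 to 28 G1E-only, and these can only grow when a list is left out. The line difference in share, the recovery difference in G1E and the difference between lines in recovery kept their direction under all alternatives run. Their ranges were -3.76 to -1.18 points, -18.97 to -6.59 and 3.62 to 20.2, and the values nearest 0 came with the 20000 highest peaks for the share and with the 0.5 overlap for both recovery differences.

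Libraries of the same replicate number correlated at -0.353 to 0.302 in their deviations over bins, above 0.1 in 6 of 12 pairs, and 5 of 12 correlated best with their own number, so the numbers do not pair the libraries. With the replicate block the combined recovery difference was -8.35 points (exact permutation p = 0.0781), and no other call on the share or recovery of the full lists changed. The block was not run for the share among the 20000 highest peaks.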
